A study of Mus musculus with 20 samples.

Results

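Microtubules are built from heterodimers of alpha- and beta-tubulin, and the isotypes of each are encoded by separate genes. The data on 9 such genes that brain neurons are known to use are described here: the alpha-tubulin genes Tuba1a, Tuba1b and Tuba4a and the beta-tubulin genes Tubb2a, Tubb2b, Tubb3, Tubb4a, Tubb4b and Tubb5. They were taken by gene name and are 9 of the 45700 genes of the deposited table, and all 9 averaged 1 FPKM or more across the 20 libraries, as 15247 genes did. FPKM counts sequenced fragments relative to transcript length and to the mapped fragments of the library, so levels of different genes are compared per length.

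The study compared whole brains of mice with severe spinal muscular atrophy (SMA), a disease caused by too little SMN protein, with those of littermates. SMA mice were of the Taiwanese model (Smn-/-; SMN2tg/0), which lacks murine Smn and carries human SMN2 as a transgene. The controls, from the same litters, were heterozygous for Smn (Smn-/+; SMN2tg/0), carried the same transgene and had a normal phenotype. All mice were congenic on FVB. Brains were taken at the early-symptomatic stage, postnatal day 5, with 2 libraries per genotype and fraction, and at the late-symptomatic stage, postnatal day 7, with 3. Total cytoplasmic RNA (RNA-seq, the transcriptome) and RNA from polysomal sucrose fractions (POL-seq, the translatome) were sequenced, giving 20 libraries. Each library is from a mouse brain, and the sources used here do not state which total and polysomal libraries share one. The deposited table holds no read counts, and the number of mice limits the precision.

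Smn1, the mouse gene that is targeted, was listed in total RNA of day 5 at 9.71 and 8.92 FPKM for controls against 9.55 and 10.1 FPKM for SMA mice, and at 8.61 and 11 against 9.65 and 9.34 FPKM in polysomal RNA. In total RNA of day 7 controls had 13.6, 14.1 and 16.7 FPKM against 11.9, 12.7 and 17.5 FPKM for SMA mice, and polysomal values were 13.3, 11.9 and 12.5 against 13.1, 14.2 and 13.3 FPKM. The genotypes overlapped in each fraction and stage, so a value over the whole gene, in mice that also carry human SMN2, does not check the genotype label. The tissue label was checked with Snap25, a presynaptic gene of neurons, which lay between 182 and 417 FPKM in all 20 libraries.

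Tuba1a and Tubb2b are the isotypes best known from the developing brain, where mutations in either disturb neuronal migration. Tubb3 is the isotype most restricted to neurons, Tubb5 and Tuba1b are expressed in many cell types, and Tubb4a is also found in oligodendrocytes. Cells adjust tubulin mRNA to the pool of free tubulin: when soluble tubulin is in excess, TTC5 binds the N-terminal peptide of nascent tubulin on the ribosome and the mRNA is degraded. That peptide is encoded by the first bases of each coding sequence. The first 21 coding bases are shown for that reason, with the 12 that encode the N-terminal peptide in capitals, from the GENCODE M21 transcripts on GRCm38.
Tuba1a: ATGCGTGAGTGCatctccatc
Tuba1b: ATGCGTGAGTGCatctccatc
Tuba4a: ATGCGCGAGTGCatttcagtc
Tubb2a: ATGCGCGAGATCgtgcacatc
Tubb2b: ATGCGAGAGATCgtgcacatt
Tubb3: ATGAGGGAGATCgtgcacatc
Tubb4a: ATGCGGGAAATCgtgcacctg
Tubb4b: ATGAGGGAGATCgtgcacctg
Tubb5: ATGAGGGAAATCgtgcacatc
The last of the capital codons was TGC in all 3 alpha-tubulin genes and ATC in all 6 beta-tubulin genes. Tuba1a and Tuba1b shared the same 21 bases.

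The isotypes are known to differ most in their acidic C-terminal tails, which face outwards on the microtubule and carry glutamylation and other modifications. For that reason the last 60 coding bases before the stop codon are given for Tuba4a and the 6 beta-tubulin genes, with in-frame codons for aspartate or glutamate in capitals.
Tuba4a: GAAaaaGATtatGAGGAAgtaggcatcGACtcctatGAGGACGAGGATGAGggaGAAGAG
Tubb2a: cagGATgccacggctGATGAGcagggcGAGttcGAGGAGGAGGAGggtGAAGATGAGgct
Tubb2b: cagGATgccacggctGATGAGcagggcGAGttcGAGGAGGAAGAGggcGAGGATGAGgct
Tubb3: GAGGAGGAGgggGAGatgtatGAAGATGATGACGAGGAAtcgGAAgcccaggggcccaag
Tubb4a: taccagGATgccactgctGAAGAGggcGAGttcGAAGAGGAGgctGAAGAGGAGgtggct
Tubb4b: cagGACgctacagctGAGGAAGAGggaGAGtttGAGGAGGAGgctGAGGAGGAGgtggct
Tubb5: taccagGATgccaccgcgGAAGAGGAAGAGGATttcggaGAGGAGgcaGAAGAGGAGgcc
Between 10 and 12 of the 20 codons in each of these tails encoded an acidic residue. Compared base by base from the stop codon, the Tubb2a and Tubb2b tails were identical at 57 of 60 bases. The Tubb3 tail was identical to that of each other beta-tubulin gene at 24 to 26 of 60 bases. No gaps were allowed, and Tubb3 has 450 codons against 444 or 445 in those genes, so its bases may be out of register. Over the whole coding sequence Tuba1a and Tuba1b were 98.3% identical and Tubb2a and Tubb2b 96.5%, and every other pair within a family was between 81.2% and 85.0%.

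Such likeness bears on the values, because reads from identical stretches can be assigned to either gene. Of all 100-base windows along the transcript, 73.0% in Tuba1b and 65.8% in Tuba1a also occurred in a transcript of another gene, most often Tuba1c. The share was 36.9% in Tubb2a and 27.7% in Tubb2b, chiefly with each other, and 30.6% in Tubb4b, chiefly with its pseudogene Tubb4b-ps1. No window of Tubb3, Tubb4a or Tubb5 occurred elsewhere. In Tuba4a 46.7% of windows lay in a stretch that Stk16 shares on the opposite strand, and the deposited table gives both genes the same span. The programs were run with default settings, under which TopHat2 and Cufflinks treat libraries as unstranded, so reads of Stk16 can be part of the Tuba4a values and the reverse. The split of reads among Tuba1a, Tuba1b and Tuba1c, or between Tubb2a and Tubb2b, is therefore uncertain.

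The genes lie on 6 chromosomes of GRCm38. Tuba1b (chromosome 15, 98931425 to 98934565) and Tuba1a (chromosome 15, 98949837 to 98953703) are neighbours on the minus strand, as are Tubb2a (chromosome 13, 34074274 to 34078007) and Tubb2b (chromosome 13, 34126748 to 34130466). Tubb5 (35833921 to 35838306) and Tubb4a (57080066 to 57087782) lie on the minus strand of chromosome 17. Tuba4a lies on chromosome 1 (75214228 to 75219865), Tubb4b on chromosome 2 (25222160 to 25224702), both on the minus strand, and Tubb3 on the plus strand of chromosome 8 (123411424 to 123422015).

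Tuba1a was the most abundant of the 9 wherever it had a value, with 1493 to 3076 FPKM in 16 libraries, and ranked 29th of all genes by its mean. Tubb2b followed at 823 to 1612 FPKM. Tubb2a (626 to 1347 FPKM), Tubb5 (615 to 1037 FPKM) and Tubb3 (562 to 1051 FPKM, 18 libraries) formed a group below it. Tuba1b (101 to 284 FPKM, 18 libraries), Tubb4b (109 to 263 FPKM), Tuba4a (63.2 to 384 FPKM) and Tubb4a (37.9 to 135 FPKM) were lower. The spread over libraries was widest for Tuba4a, whose highest value was 6.07 times its lowest, and narrowest for Tubb5, at 1.69 times.

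In control total RNA at day 5 the mean levels fell in the order Tuba1a (1801 ± 99.5 FPKM, SD, n = 2), Tubb2b, Tubb5, Tubb3, Tubb2a, Tuba1b, Tubb4b, Tuba4a and Tubb4a (54.3 ± 1.17 FPKM, SD, n = 2). In that order Tubb2b overlapped Tubb5, Tubb5 overlapped Tubb3 and Tuba1b overlapped Tubb4b, while the other neighbours did not overlap. At day 7 Tuba4a stood above Tubb4b in control total RNA, at 239 ± 27.8 against 181 ± 6.89 FPKM (SD, n = 3), and the 2 did not overlap. Tubb2a, Tubb5 and Tubb3 overlapped each other at day 7, and so did Tuba1b and Tuba4a.

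**Figure D1:**
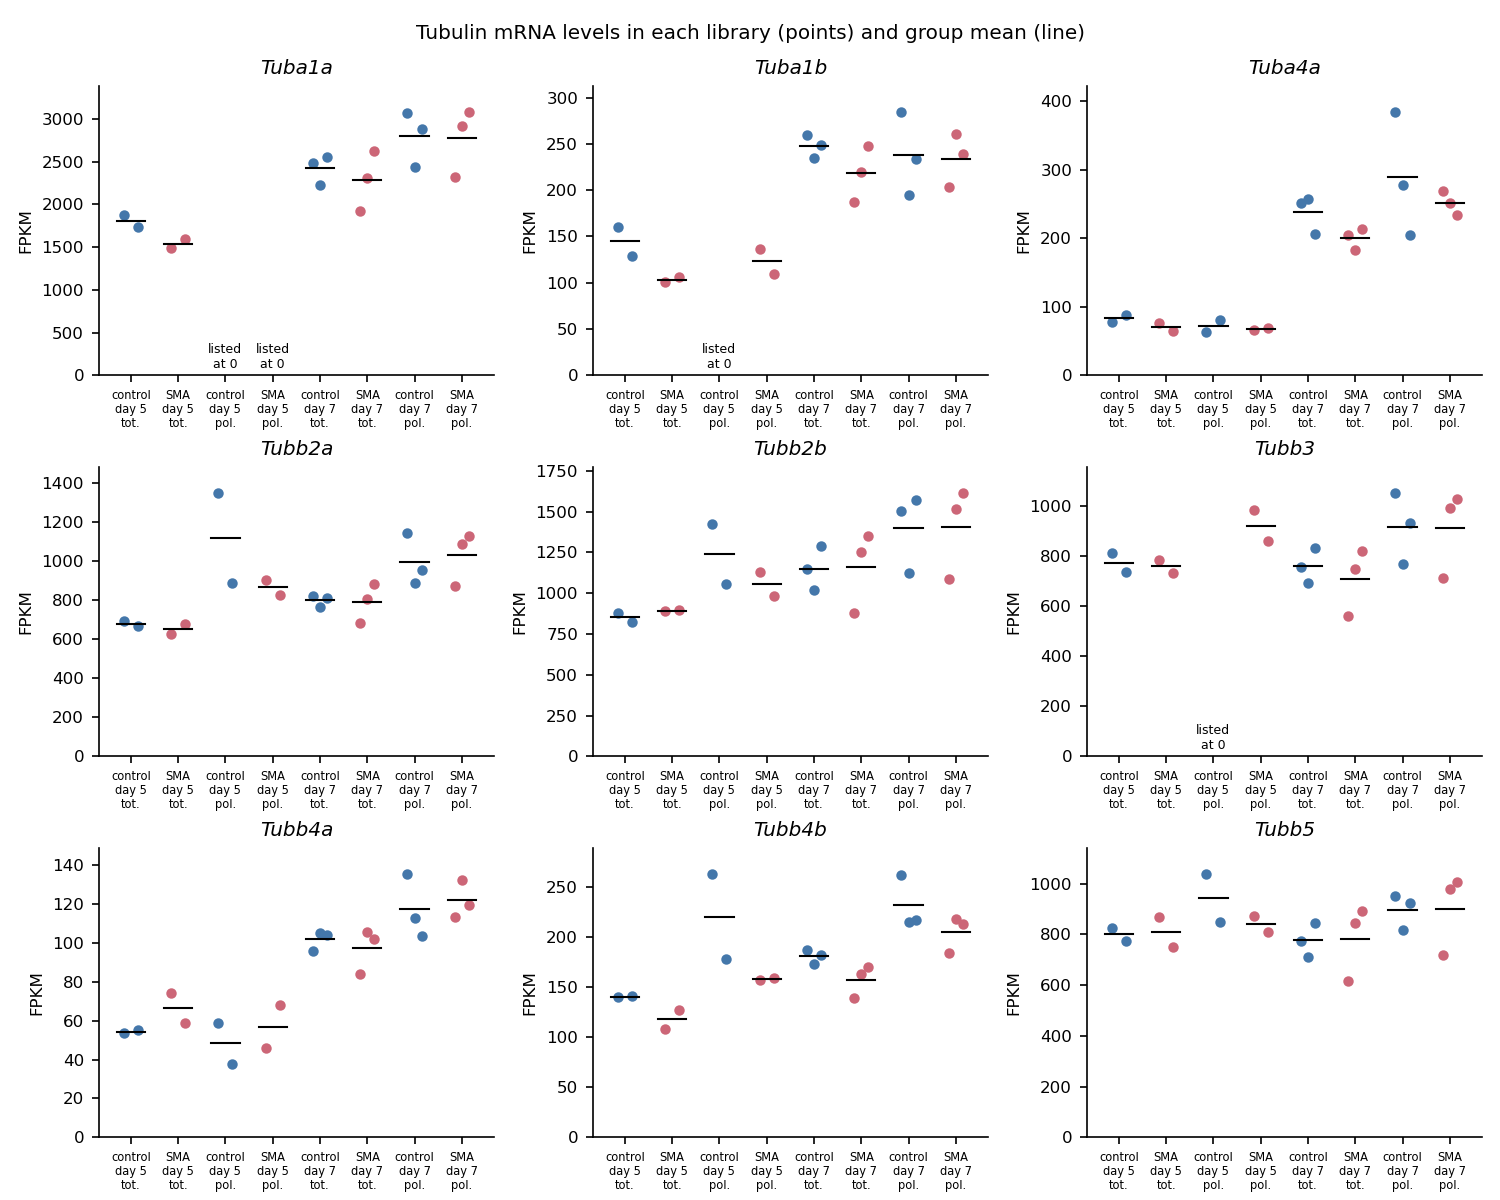
FPKM of the 9 tubulin genes (y axes, linear, each gene on its own scale) in each of the 20 libraries (points, blue control and red SMA) with the mean of each group (line), for total (tot.) and polysomal (pol.) RNA at day 5 and day 7. Tuba4a lies at 63.2 to 87.8 FPKM at day 5 and at 182 to 384 FPKM at day 7, and Tubb3 overlaps between ages in each genotype of total RNA.

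Some values were listed at 0 and were treated as missing. Tuba1a was listed at 0 in all 4 polysomal libraries of day 5, and Tuba1b and Tubb3 in both control polysomal libraries of day 5, although each of them was at 100.6 FPKM or more in every other library. Of the 15247 genes, 525 (3.44%) were at 0 in both of those control libraries and 396 (2.60%) in both SMA polysomal libraries of day 5, among them, in the former, the abundant neuronal gene Map1b. The share in the other 6 groups was 2.09% to 3.10%. No level or fold is given for the tubulins concerned there, and day 5 polysomal comparisons cover 6 of the 9 genes in controls and 8 in SMA mice.

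Between day 5 and day 7 the size of the change differed among the tubulin mRNAs, though isotypes were not tested against each other. In control total RNA 7 of the 9 passed the threshold (unadjusted p under 0.05, as the study used) and all 7 rose, Tuba4a by the most, whereas Tubb3 and Tubb5 did not pass. Over all genes tested 43.7% passed in this comparison, and 21.5% passed as higher. The median log2 difference was 0.43 over the 9 tubulins and -0.03 over all 14513 genes. After Benjamini-Hochberg adjustment in limma 4 of the 9 remained under 0.05, against 28.7% of all genes.

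Tuba4a, an alpha-tubulin isotype of the adult brain, had 78.4 and 87.8 FPKM in control total RNA at day 5 and 252, 258 and 207 FPKM at day 7. In SMA total RNA it had 77.1 and 64.6 FPKM at day 5 and 205, 182 and 214 FPKM at day 7. Every day 7 library was above every day 5 library in both genotypes. Tuba4a rose 2.86-fold in control (log2 difference 1.52, SE 0.12, adjusted p = 0.00253, limma) and 2.83-fold in SMA total RNA (1.50, SE 0.14, adjusted p = 0.00737, limma). In polysomal RNA the rise was from 63.2 and 81.4 to 384, 278 and 205 FPKM in control (3.90-fold) and from 66.0 and 68.8 to 269.7, 252 and 235 FPKM in SMA mice (3.73-fold). Stk16, which overlaps Tuba4a on the other strand and was looked up after the values were seen, was at 29.4 to 42.0 FPKM in all libraries, beside 63.2 to 87.8 FPKM for Tuba4a at day 5. Its log2 differences were -0.18, -0.19, -0.06 and -0.04 in the same 4 comparisons, none past the threshold. How much of the Tuba4a level came from Stk16 reads was not tested.

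Tubb4a had 53.5 and 55.2 FPKM in control total RNA at day 5 and 95.9, 105 and 104 FPKM at day 7. In SMA total RNA the values were 74.0 and 59.0 against 84.2, 106 and 102 FPKM. Day 7 was again above day 5 without overlap. It rose 1.87-fold in control (0.90, SE 0.07, adjusted p = 0.00253, limma) and 1.47-fold in SMA total RNA (0.55, SE 0.15, adjusted p = 0.0574, limma). The rise in polysomal RNA was 2.47-fold for controls and 2.18-fold for SMA mice. Without the second SMA day 5 library the SMA total difference was 0.39 and no longer passed.

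Tuba1b had 161 and 129 FPKM in control total RNA at day 5 and 259, 235 and 249 FPKM at day 7, and 101 and 106 against 187, 219 and 248 FPKM in SMA mice. The ages did not overlap in either genotype. It rose 1.72-fold in control (0.78, SE 0.11, adjusted p = 0.00718, limma), 2.10-fold in SMA total RNA (1.07, SE 0.15, adjusted p = 0.0147, limma) and 1.90-fold in SMA polysomal RNA. Tubb4b, a widely expressed beta-tubulin, had 140.1 and 141 FPKM at day 5 and 187, 173 and 182 FPKM at day 7 in control total RNA. It rose 1.29-fold in control total (0.36, SE 0.07, adjusted p = 0.0138, limma), 1.33-fold in SMA total and 1.29-fold in SMA polysomal RNA. In control polysomal RNA, where the first day 5 library was high at 263 against 178 FPKM, the Tubb4b difference was 0.09 (95% interval -0.35 to 0.54).

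Smaller rises were called for Tuba1a, Tubb2b and Tubb2a in control total RNA. In polysomal RNA Tuba1a could not be tested, and Tubb2a and Tubb2b were not called in either genotype with all libraries. Tuba1a had 1871 and 1731 FPKM at day 5 and 2488, 2227 and 2551 FPKM at day 7, a difference of 0.43 (SE 0.13, adjusted p = 0.0549, limma). Tubb2b had 881 and 823 against 1149.6, 1018 and 1287 FPKM, also 0.43 (SE 0.13, adjusted p = 0.0518, limma), and Tubb2a 694 and 666 against 822, 762 and 811 FPKM, 0.23 (SE 0.09, adjusted p = 0.0978, limma). In SMA total RNA the same genes differed by 0.55, 0.35 and 0.27, with intervals that included 0, and a difference between the genotypes was not shown: the interaction of genotype and stage was 0.13, -0.08 and 0.04 (adjusted p = 0.855, 0.923 and 0.941, limma). Tuba1a lost its direction when libraries were quantile normalized (-0.07), and Tubb2a no longer passed in 7 of the alternatives, among them without any single library but the second control library of day 7. Without the second control library of day 5, Tuba1a (0.37) and Tubb2b (0.38) did not pass either, and Tuba1a was also lost without the first (0.41) or the third (0.39) control library of day 7.

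Tubb3 and Tubb5 showed no called difference with age. Tubb3 had 811 and 736 FPKM at day 5 and 756, 693 and 833 FPKM at day 7 in control total RNA, a difference of -0.03 (95% interval -0.30 to 0.25). Tubb5 had 824 and 776 against 774, 713 and 846 FPKM, -0.04 (95% interval -0.31 to 0.22). The ages overlapped for both genes. In SMA total RNA the differences were -0.11 (95% interval -0.65 to 0.42) for Tubb3 and -0.06 (95% interval -0.62 to 0.49) for Tubb5. Under quantile normalization Tubb3 fell by 0.46 in SMA polysomal RNA, the only lower call with age among the 9 genes in the alternatives run.

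Taking the 4 comparisons of age together, 2 of 6 genes rose in control polysomal (all genes called 46.2%, as higher 22.2%), 4 of 9 in SMA total (35.7%, as higher 17.2%) and 4 of 8 in SMA polysomal RNA (44.7%, as higher 23.3%), and no tubulin fell. Tuba4a and Tubb4a were called in all 4. The ages did not overlap for 7 of 9 genes in control total (all genes 60.9%), 2 of 6 in control polysomal (62.3%), 6 of 9 in SMA total (53.7%) and 4 of 8 in SMA polysomal RNA (61.1%), day 7 being the higher each time. Without the first SMA polysomal library of day 7, Tubb2a (0.36) and Tubb2b (0.57) rose as well in SMA polysomal RNA. The SMA total call of Tubb4b was lost without the first library of day 5 (0.30) and the second (0.39) or the third (0.36) of day 7, and under quantile normalization (0.21), which also ended its SMA polysomal call (0.18). None of the 9 genes in total RNA and none of the 6 tested in polysomal RNA passed the test of a difference between genotypes in the change with age (all genes called, 10.1% and 13.7%). The closest was Tubb4a in total RNA, at -0.35 (95% interval -0.74 to 0.04, adjusted p = 0.483, limma), which passed under quantile normalization (-0.42), with a correction for transcript length (-0.45) and without the second SMA library of day 5 (-0.51). Age cannot be told apart from any processing that libraries of one age shared.

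**Figure D2:**
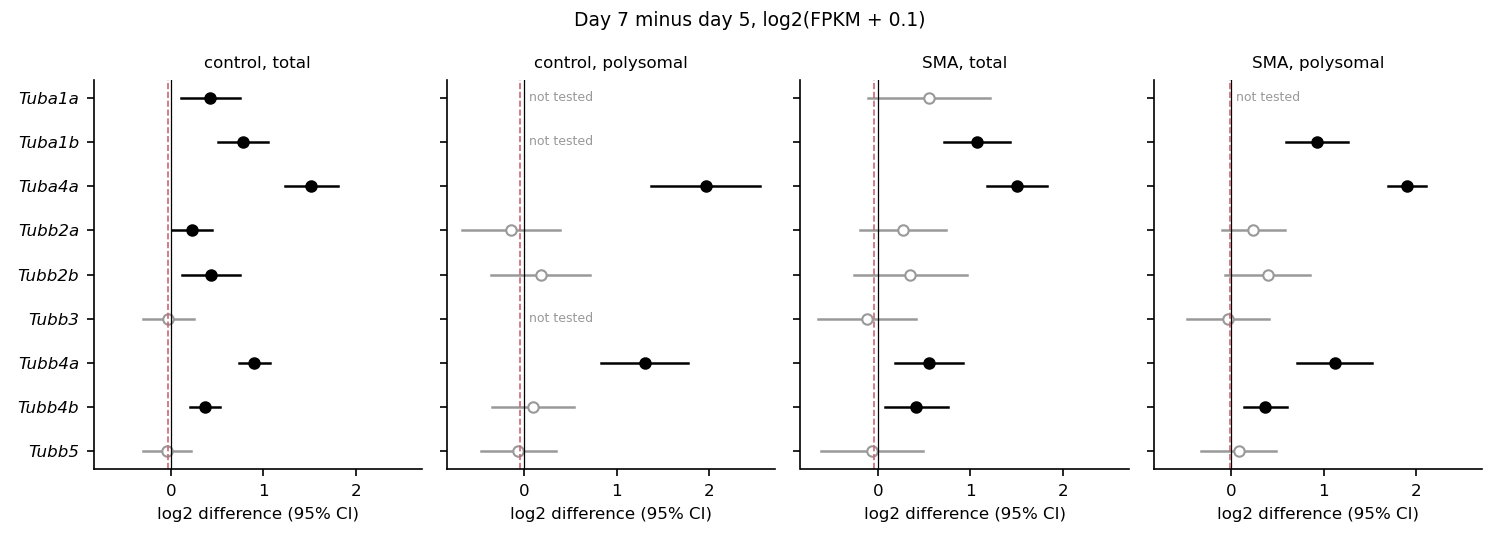
Difference in log2(FPKM + 0.1) between day 7 and day 5 (x axes) for the 9 genes (y axis) in each genotype and fraction, with 95% confidence intervals. Filled black points passed an unadjusted p of 0.05 in limma and open grey points did not, the dashed red line is the median of all genes tested, and genes listed at 0 were not tested. Tuba4a lies farthest to the right in all 4 panels, at 1.50 to 1.96.

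In whole brain, more cells of a type and more RNA per cell cannot be told apart. Neuronal markers moved with age: 4 of 5 (Snap25, Syt1, Rbfox3 and Syp, but not Eno2) rose in control total RNA, and their summed level went from 804 ± 10.1 (SD, n = 2) to 1107 ± 75.3 FPKM (SD, n = 3), with Syp the most abundant. All 6 oligodendrocyte markers were above their day 5 level, though none was called in controls, and their sum was 219 ± 81.9 against 306 ± 132 FPKM, with Mbp the most abundant. Of the 6 markers of immature neurons and progenitors, 2 (Nes and Sox11) fell, and the sum was 184 ± 8.13 against 167 ± 21.9 FPKM. Of the 4 microglial markers 3 rose (P2ry12 by 1.11, Cx3cr1 by 0.63 and Csf1r by 0.47) and C1qa, the most abundant at day 5, fell by 0.25, and their sum was 43.1 ± 1.99 against 59.6 ± 4.66 FPKM. Of the 4 endothelial markers Cldn5, Kdr and Pecam1 fell, and their sum was 64.9 ± 5.55 against 43.5 ± 5.68 FPKM. Of the 5 astrocyte markers Slc1a2 rose by 0.85 and Aldh1l1 fell by 0.31, and the sum was 293 ± 38.3 against 362 ± 19.8 FPKM. Of the 4 globin genes of red blood cells, all but Hbb-bs rose, Hba-a1 by 0.98, and the sum was 2611 ± 202 against 3821 ± 336 FPKM. None of these markers was at 0 in a whole group. Their part in the tubulin differences was not tested.

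The shares of the isotypes shifted accordingly. Tuba4a made up 4.11% ± 0.561 (SD, n = 2) of the summed FPKM of the 3 alpha-tubulin genes in control total RNA at day 5 and 8.25% ± 1.31 (SD, n = 3) at day 7, and Tuba1a went from 88.8% to 83.2%. Among the 6 beta-tubulin genes Tubb3 went from 23.4% ± 0.587 to 20.2% ± 0.295 and Tubb5 from 24.3% ± 0.0424 to 20.6% ± 0.189, while Tubb2b went from 25.8% ± 0.0919 to 30.5% ± 1.15 and Tubb4a from 1.65% ± 0.108 to 2.71% ± 0.283. SMA mice showed the same order, with Tubb3 at 23.0% and 19.2%. The ratio of summed alpha to summed beta FPKM was 0.615 ± 0.00778 (SD, n = 2) at day 5 and 0.772 ± 0.0283 (SD, n = 3) at day 7 in control, and 0.520 ± 0.0317 and 0.733 ± 0.0451 in SMA total RNA. These shares are descriptions and were not tested.

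**Figure D3:**
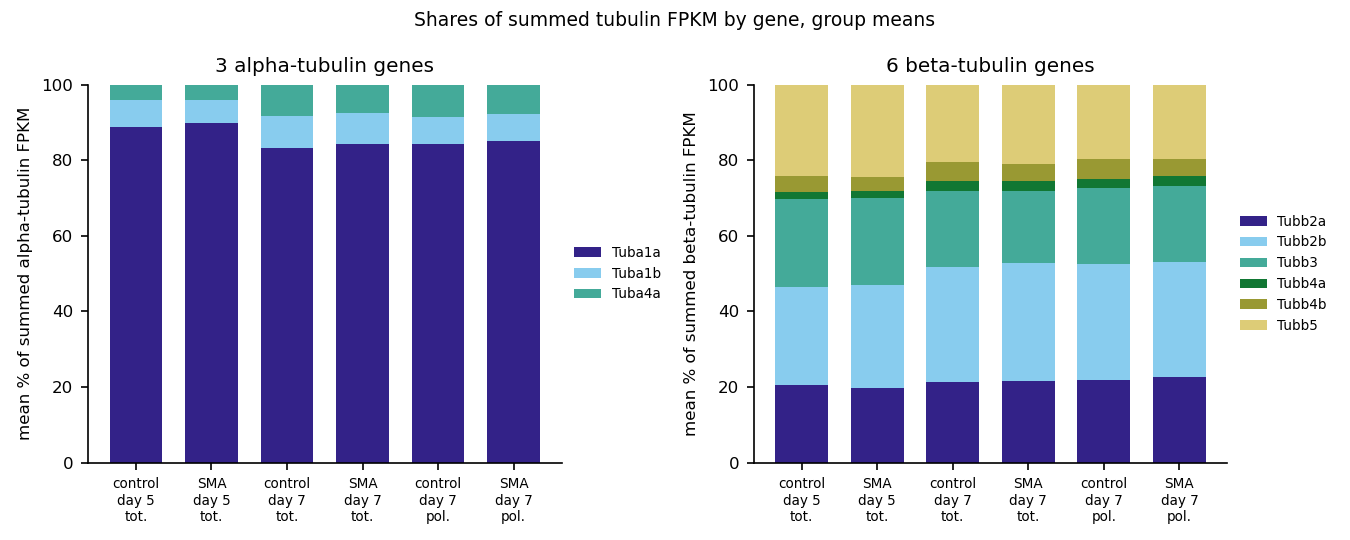
Mean share (y axes, percent) of each gene in the summed FPKM of the 3 alpha-tubulin (left) and 6 beta-tubulin genes (right), by genotype and age in total (tot.) and polysomal (pol.) RNA. Polysomal groups of day 5 are left out because genes listed at 0 are missing there. The Tuba4a share is 4.11% and 4.14% at day 5 and 7.53% to 8.67% at day 7.

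SMA and control brains were compared at each stage and in each fraction, and of the tubulins nearly none was called. Tuba1b in total RNA at day 5 was the single call of the 9 genes (all genes called 9.68%, as lower 4.61%). No gene was called of the 6 tested in polysomal RNA at day 5 (15.3%), of the 9 in total RNA at day 7 (9.94%) or of the 9 in polysomal RNA at day 7 (11.1%), by limma at an unadjusted p under 0.05. After adjustment 0%, 0.0207%, 0.2% and 0.276% of all genes remained in these comparisons, and no tubulin. The median log2 difference over the tubulins was -0.06, -0.19, -0.10 and -0.01 in these 4 comparisons, beside 0.02, -0.02, 0.0006 and 0.0016 over all genes.

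Tuba1b fell by 0.48 on the log2 scale in SMA total RNA at day 5 (SE 0.16, adjusted p = 0.498, limma), from 161 and 129 FPKM in controls to 101 and 106 FPKM. The groups did not overlap, as was so for 49.3% of all genes with 2 mice against 2. The call was lost with a correction for transcript length (-0.33), with the replicate number as a block, and without either control library (-0.32 and -0.64) or the first SMA library (-0.44). At day 7 total RNA of SMA mice held Tuba1b at 187, 219 and 248 FPKM, against 259, 235 and 249 FPKM in controls, a difference of -0.19 (95% interval -0.44 to 0.07). In polysomal RNA at day 7 the difference was -0.01 (95% interval -0.36 to 0.34). Tuba1c, which shares more of the Tuba1b windows than any other gene, differed by -0.24 in total RNA at day 5 (95% interval -0.66 to 0.18). How reads were split between Tuba1b and Tuba1c was not tested.

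Tubb4b was lower in SMA mice without overlap in 3 of the 4 comparisons, though not called in any. In total RNA at day 5 SMA mice had 109 and 127 FPKM and controls 140.1 and 141 FPKM, -0.25 (95% interval -0.62 to 0.11). In polysomal RNA at day 5 it had 263 and 178 against 157 and 159.6 FPKM, -0.45 (95% interval -0.95 to 0.05, adjusted p = 0.356, limma). In total RNA at day 7 it had 187, 173 and 182 against 139, 163 and 170.5 FPKM, -0.20 (95% interval -0.41 to 0.01, adjusted p = 0.518, limma). Of the 9 tubulins 6 did not overlap in total RNA at day 5 (4 below and 2 above control), beside 49.3% of all genes. Among all genes 52.2% did not overlap in polysomal RNA at day 5 and 15.7% in total RNA at day 7. Tubb4b was the 1 gene without overlap among the 6 with values in the former and among the 9 in the latter. In polysomal RNA at day 7 the Tubb4b values overlapped, 262, 216 and 218 against 185, 218 and 213 FPKM (-0.17, 95% interval -0.42 to 0.08). The day 7 total difference passed under quantile normalization (-0.22), with a length correction (-0.22) and without the third SMA library (-0.26), and the day 5 polysomal difference without the second control library (-0.73), where Tubb2a passed as well (-0.64). The day 5 polysomal difference of Tubb4b also passed when all 20 libraries were fitted together.

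Tuba4a in total RNA at day 7 was at 205, 182 and 214 FPKM in SMA mice, against 252, 258 and 207 FPKM in controls, -0.25 (95% interval -0.50 to 0.00, adjusted p = 0.510, limma), and the groups overlapped. It passed in the same 2 rescalings (both -0.25), without the third control library (-0.35) and without the third SMA library (-0.30), where Tuba1b passed too (-0.29). In polysomal RNA at day 7 it passed without the third control library (-0.38). In total RNA at day 7 all 9 tubulins were below 0, with Tubb5, Tubb2b and Tubb2a nearest to it. The intervals there for Tubb5 (-0.36 to 0.36), Tubb2b (-0.43 to 0.42) and Tubb3 (-0.47 to 0.25) show the size of difference that 3 mice per genotype could not tell from 0. In polysomal RNA at day 7 the intervals of the 9 genes ran from -0.63 at the lowest (Tuba4a) to 0.45 at the highest (Tubb2b).

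Tubb4a in total RNA at day 5 was above control in both SMA mice, 74.0 and 59.0 against 53.5 and 55.2 FPKM, 0.28 (95% interval -0.10 to 0.66). The difference was 0.44 and passed without the second SMA library, as did Tubb4b (-0.37), and Tuba4a passed without the first (-0.36). Tuba1a was below control at day 5, with 1493 and 1589.8 against 1871 and 1731 FPKM, -0.22 (95% interval -0.99 to 0.54). At day 7 the first SMA library of each fraction was lowest in its group for Tuba1a, Tuba1b, Tubb2a, Tubb2b, Tubb3, Tubb4a, Tubb4b and Tubb5.

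Among 11 further tubulin genes, chosen as the rest of the superfamily, 5 could be tested. Of these Tubb6, a beta-tubulin known mainly from outside neurons, was lower in SMA mice in all 4 comparisons. In total RNA of day 5 SMA mice had 3.09 and 3.21 FPKM and controls 5.22 and 5.88 FPKM, and at day 7 SMA mice had 3.27, 2.95 and 2.97 FPKM and controls 4.58, 4.79 and 5.58 FPKM. Tubb6 fell by 0.80, 0.63, 0.68 and 0.63 in total and polysomal RNA of day 5 and of day 7, with adjusted p between 0.0596 and 0.498 (limma), so no difference passed the adjustment. No library of one genotype overlapped the other within a comparison for Tubb6. Tubg2, a gamma-tubulin gene, was higher in SMA mice in polysomal RNA, at 6.18 and 6.68 against 5.26 and 4.67 FPKM at day 5 (0.37, adjusted p = 0.322, limma) and 13.3, 11.2 and 13.0 against 11.2, 9.62 and 9.9 FPKM at day 7 (0.28, adjusted p = 0.365, limma). These differences passed the unadjusted threshold, not the adjusted one, and in total RNA (0.02 and 0.17) neither threshold was passed. With age Tubg2 and Tubg1, the other gamma-tubulin gene, rose in both fractions and genotypes, Tubg2 by 0.67 to 1.03 and Tubg1 by 0.47 to 0.78. Endothelial markers moved alongside: 3 of 4 fell at day 5 and 4 of 4 at day 7 in either fraction, and their sum in total RNA was 64.9 ± 5.55 against 30.1 ± 0.255 FPKM (SD, n = 2) at day 5 and 43.5 ± 5.68 against 23.6 ± 1.95 FPKM (SD, n = 3) at day 7. Cldn5, the most abundant of them, passed the adjusted threshold at day 7, in total (adjusted p = 0.0209, limma) and polysomal RNA (adjusted p = 0.0257, limma). None of the endothelial markers was at 0 in a whole group. Their part in the Tubb6, Tubg2, Tuba1b and Tubb4b differences was not tested.

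Markers of other cell types also differed between the genotypes by the unadjusted threshold. Of the 4 globin genes Hba-a2 fell in all 4 comparisons (by 0.43 to 0.95) and Hbb-bt in 3, all but total RNA of day 5 (by 0.38 to 0.65). Their sum in total RNA was 2611 ± 202 FPKM for controls against 2543 ± 1177 FPKM for SMA mice at day 5 and 3821 ± 336 against 3574 ± 675 FPKM at day 7, with Hbb-bs and then Hba-a1 the most abundant. Of the 4 microglial markers P2ry12 fell in 3 comparisons, all but polysomal RNA of day 7 (by 0.41 to 0.56), while C1qa rose in both fractions of day 7 (0.62 and 0.47). The microglial sum in total RNA was 43.1 ± 1.99 against 42.9 ± 3.05 FPKM at day 5 and 59.6 ± 4.66 against 60.4 ± 8.27 FPKM at day 7. Of the 5 astrocyte markers Slc1a2 rose in total RNA of day 5 (0.66) and Gfap in polysomal RNA of day 7 (0.40), and the sum in total RNA was 293 ± 38.3 against 366 ± 14.1 FPKM at day 5 and 362 ± 19.8 against 408 ± 57.4 FPKM at day 7. Of the 6 markers of immature neurons and progenitors Mki67 fell in total RNA (by 0.75) and Dcx rose in polysomal RNA of day 5 (0.40), and the sum in total RNA of that age was 184 ± 8.13 against 212 ± 24.4 FPKM. No neuronal or oligodendrocyte marker was called in any of the 4 comparisons, and none of the calls in this paragraph passed the adjusted threshold in limma. The part of these markers in the tubulin differences was not tested.

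**Figure D4:**
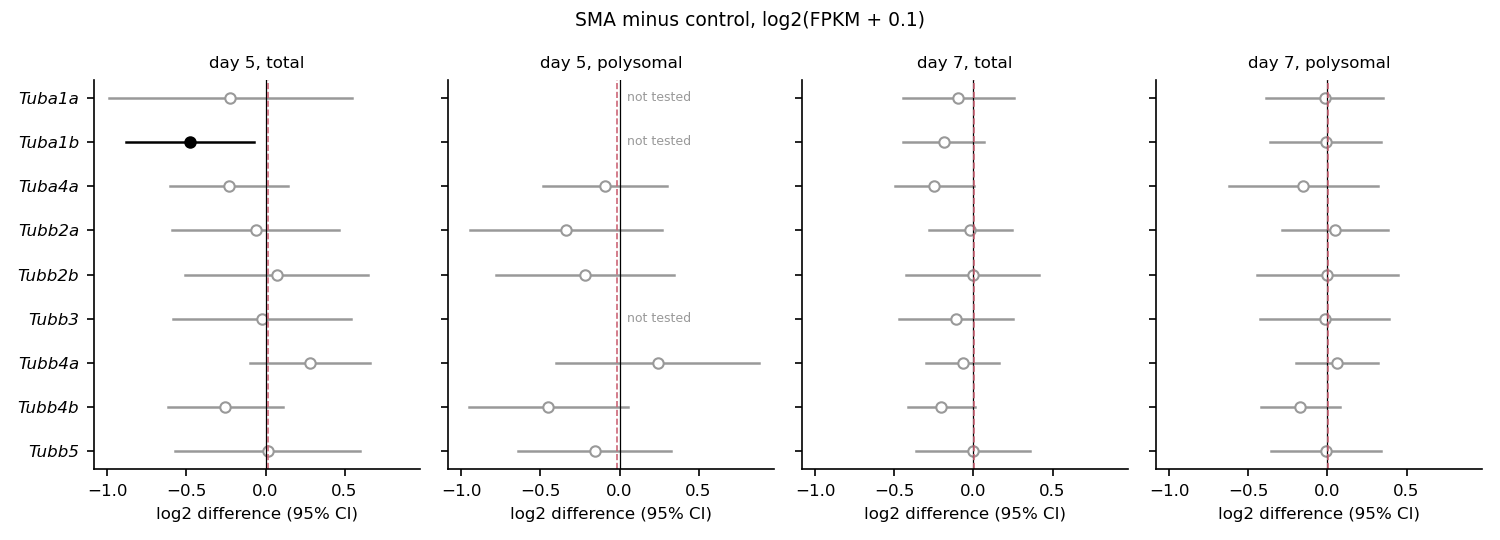
Difference in log2(FPKM + 0.1) between SMA and control brains (x axes) for the 9 genes (y axis) at each age and fraction, with 95% confidence intervals. Filled black points passed an unadjusted p of 0.05 in limma, open grey points did not, and the dashed red line is the median of all genes tested. The 1 filled point is Tuba1b in total RNA at day 5, at -0.48, and genes listed at 0 were not tested.

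The study takes the ratio of polysomal to total RNA as translation efficiency (TE). Tubulin mRNAs were on the whole at a higher FPKM in the polysomal than in the total libraries, and Tubb4b was called as higher in polysomal RNA in both genotypes at both ages, though its call in SMA mice of day 5 was lost with the replicate number as a block. In control brains 2 of 6 genes rose at day 5 (all genes called 30.7%, as higher 15.2%) and 2 of 9 at day 7 (26.2%, as higher 14.8%), in both cases Tubb2a and Tubb4b. In SMA brains 1 of 8, Tubb4b, rose at day 5 (14.1%, as higher 5.01%) and 4 of 9, Tubb4b, Tubb2a, Tuba4a and Tubb4a, at day 7 (30.7%, as higher 18.2%). No tubulin was called as lower, and none passed the adjusted threshold, which 4.27% and 0.412% of all genes did in control and SMA mice at day 5 and 7.58% and 12.3% at day 7. Polysomal and total values did not overlap for 4 of 6 and 5 of 8 tubulins at day 5 (all genes 64.2% and 49.5%) and for 2 and 3 of 9 at day 7 (32.1% and 36.6%). With one library left out there were 2 lower calls in controls of day 5, Tubb4a at -0.52 without the first polysomal library and Tuba4a at -0.39 without the second. Tubb2a in controls lost its call without either total library of day 5 (0.71 and 0.66), without the first polysomal library of day 5 (0.38), and without any of the total libraries (0.28 to 0.33) or the first polysomal library of day 7 (0.20). In SMA mice of day 7 it was lost without the first or second total library (0.28 and 0.40) and the second or the third polysomal library (0.33 and 0.31), and Tubb4a without the second polysomal library (0.26). Tubb4b in controls of day 5 was lost without either total library (0.62 and 0.63).

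The medians over the tubulins were 0.38 (control) and 0.24 (SMA) at day 5 and 0.24 and 0.33 at day 7, beside 0.04, 0.01, 0.06 and 0.06 over all genes. Tubb4b in control mice of day 7 had 262, 216 and 218 FPKM in polysomal against 187, 173 and 182 FPKM in total RNA, 0.35 (SE 0.09, adjusted p = 0.0659, limma). In SMA mice of that age it had 185, 218 and 213 against 139, 163 and 170.5 FPKM, 0.38 (SE 0.10, adjusted p = 0.0556, limma). Polysomal values of Tubb4b lay above the total values without overlap in each genotype and age.

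Total and polysomal libraries of day 7 that share a replicate number deviated together from their group means. With that number as a block, 5 of 9 genes rose in control (Tubb2a, Tubb4b, Tubb2b, Tubb3 and Tubb5) and 8 of 9 in SMA mice of day 7, all but Tuba1b, while the share of all genes called went to 32.6% and 40.1%. Of all genes called without the block, 56.7% in control and 59.2% in SMA mice of day 7 were higher in polysomal RNA, and 45.6% and 45.8% after a correction for transcript length. Quantile normalization raised the differences of the most abundant genes, for example of Tuba1a in control mice of day 7 from 0.20 to 1.04, and called 6 and 8 of the 9 genes at day 7.

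Replicate by replicate, all 9 tubulins had a higher polysomal than total FPKM in the first control pair and the first and second SMA pairs of day 7, 8 of 9 in the second control and the third SMA pair, and 6 of 9 in the third control pair. Of all genes 55.1% to 61.6% were higher in these 6 pairs, with 55.1% in the third control pair. Tuba1b was the gene most often below 0 at day 7, at -0.27 and -0.09 in the second and the third control pair and -0.06 in the third SMA pair. At day 5 the data did not settle whether libraries of the same number share a brain. There Tuba4a had -0.31 and -0.11 in controls. Tubb4a differed in sign within each genotype, with 0.13 and -0.54 for controls against -0.69 and 0.20 for SMA mice. The call of Tubb4b in SMA mice of day 5 (0.43, adjusted p = 0.343, limma) was lost with the replicate number as a block (0.43), with quantile normalization (0.38), without the first total library (0.31) and without either polysomal library (0.44 and 0.41).

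No tubulin passed the test of a change in TE between genotypes, 0 of 6 at day 5 and 0 of 9 at day 7, where 1.88% and 1.96% of all genes did (limma, unadjusted p under 0.05). The study tested TE with Xtail, which needs read counts, and the deposited table holds none. The interaction of genotype and fraction on log2 FPKM stands in for it here and is not the study's result. Few genes of any kind passed it, so changes in TE could be missed. The differences at day 7 ran from -0.01 for Tubb5 (95% interval -0.50 to 0.49) to 0.18 for Tuba1b (95% interval -0.26 to 0.62). At day 5 they ran from -0.29 for Tubb2b (95% interval -1.06 to 0.48) to 0.14 for Tuba4a (95% interval -0.38 to 0.66).

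**Figure D5:**
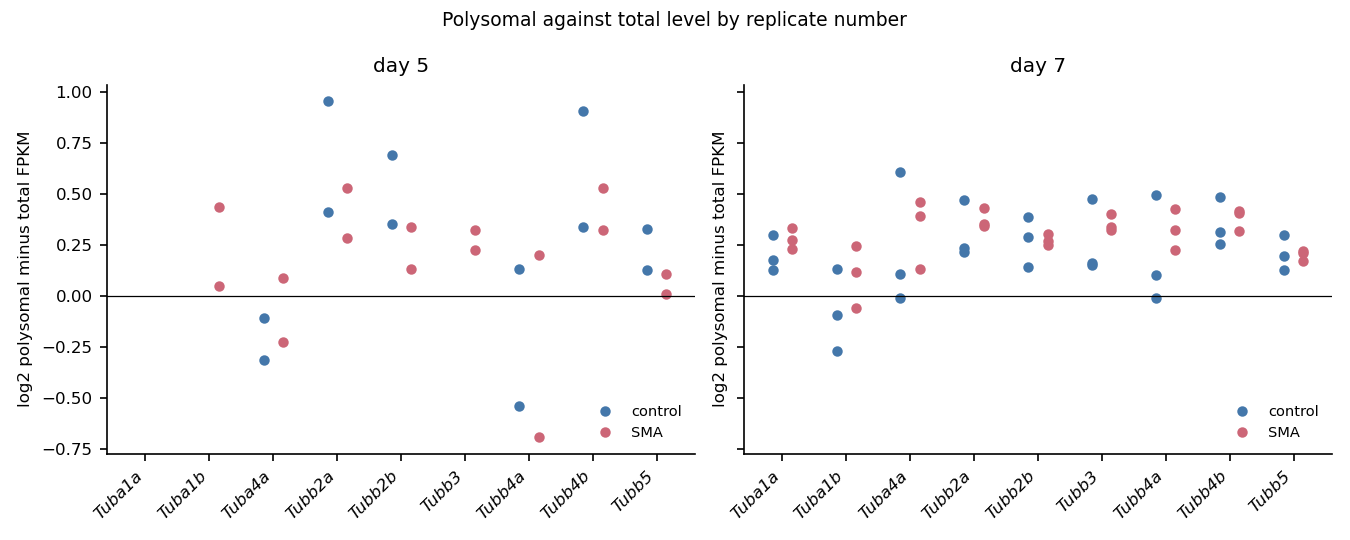
Difference in log2(FPKM + 0.1) between the polysomal and the total library of the same replicate number (y axis) for the 9 genes (x axis) at day 5 (left) and day 7 (right), 1 point per pair, blue control and red SMA. Genes listed at 0 have no point. Tubb2a, Tubb2b, Tubb4b and Tubb5 are above 0 in all 10 pairs, Tuba1a and Tubb3 in the 6 and 8 pairs with a value, and the genotypes overlap for all 9 genes at day 7.

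Genes that act on tubulin were counted from lists. Of all genes tested, 21.5% passed as higher and 22.1% as lower with age in control total RNA, 22.2% and 24.0% in control polysomal, 17.2% and 18.5% in SMA total and 23.3% and 21.3% in SMA polysomal RNA. For the interaction of genotype and stage 4.72% passed as positive and 5.4% as negative in total RNA, and 7.4% and 6.25% in polysomal RNA. In SMA against control at day 5 the share called as higher was 5.07% in total RNA, and 6.59% were higher and 8.76% lower in polysomal RNA. Of the 20 genes for tubulin folding, which include the CCT chaperonin, prefoldin and the tubulin cofactors, 10 fell and none rose with age in control total RNA and 15 fell and none rose in control polysomal RNA, with medians of -0.19 and -0.41. Tbcb, a cofactor for folding of alpha-tubulin, fell from 267 and 246 to 163, 157 and 177 FPKM in control total RNA, by 0.63 (SE 0.08, adjusted p = 0.00613, limma). In SMA mice 4 fell and 1 rose in total and 9 fell and 1 rose in polysomal RNA. Tbcb, Tbca, Pfdn6 and Vbp1 were lower in SMA than control polysomal RNA at day 5, and the median of the list was -0.33 there and 0.01 in polysomal RNA at day 7. The interaction of genotype and stage passed for 7 of the 20 genes in polysomal RNA, all positive, and for 3 in total RNA, of which Tbca and Vbp1 were positive and Tbce negative.

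These polysomal values of the folding genes rest in part on the control libraries of day 5, which stood apart. Their list sums were 4157 and 3169 FPKM in the first and the second library, 3663 ± 698 FPKM (SD, n = 2), while the SD of the other 7 groups was 50.6 to 297 FPKM. Without the first library the fall with age in control polysomal RNA was called for 8 of the 20 genes (all genes as lower 14.3%), SMA against control called 3 as lower (median -0.08, all genes as lower 5.29%) and the interaction was positive for 3 (median 0.17, all genes 2.96%). Without the second library the counts were 16 lower with age (all genes 24.8%), 16 lower and 1 higher in SMA mice (median -0.56, all genes 15.7% and 9.52%) and 16 positive for the interaction (median 0.58, all genes 14.5%). Without either SMA polysomal library of day 5 no folding gene was called in SMA against control (medians -0.32 and -0.28). The median of the interaction was 0.41 without the first and 0.31 without the second of these SMA libraries, against 0.37 with all libraries. With the length correction 1 gene was called as lower in SMA mice (median -0.19, all genes as lower 6.33%). The interaction was then positive for 4 and negative for 1 (all genes 4.06% and 4.76%). With quantile normalization no gene was called in SMA mice (median -0.14, all genes as lower 7.71%) and the interaction was again positive for 4 and negative for 1 (all genes 6.03% and 7.28%). These alternatives for the list were added after the values were seen.

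Of 27 genes for microtubule-associated proteins, 16 rose and 2 fell with age in control total RNA, and 6 rose and 1 fell in SMA total RNA. Map1a, a stabilizing protein of mature neurons, rose from 31.7 and 31.5 to 129, 137 and 118 FPKM in control (2.01, SE 0.08, adjusted p = 0.000845, limma) and from 41.6 and 38.6 to 125, 136 and 102 FPKM in SMA total RNA (1.58, SE 0.15, adjusted p = 0.00737, limma). Stmn2, which binds tubulin dimers, rose by 1.04 and Stmn1, of the same family, fell by 0.72 in control total RNA. The interaction passed for 5 of the 27 genes in total RNA, all negative, and for 4 of 26 in polysomal RNA, all negative. SMA against control at day 5 called 2 as higher in total RNA (Map1a and Map1b) and 4 as higher and 1 as lower in polysomal RNA, with a median of 0.21 in both. The polysomal counts rest on the same control libraries of day 5 as those of the folding genes. How the counts of this list depend on single libraries or on the processing is not given.

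The 3 genes of tubulin mRNA autoregulation were measured in every library. Ttc5, the sensor that binds nascent tubulin, went from 31.8 and 32.1 to 20.5, 19.8 and 21.9 FPKM in control total RNA, where it fell by 0.63 (SE 0.07, adjusted p = 0.00476, limma), and fell by 0.54 in SMA total RNA. The ages did not overlap. Cnot11, a subunit of the deadenylase complex, rose by 0.44 and 0.50, and Scaper, the adaptor between them, fell by 0.28 in SMA total RNA. In SMA against control 1 call was made among these genes, Ttc5 in polysomal RNA at day 5 (-0.38, adjusted p = 0.318, limma).

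Of 20 measured genes for tubulin modification 17 were tested. With age 4 rose and 4 fell in control total RNA, close to the shares over all genes, led by Agtpbp1, which removes glutamates from tubulin tails (1.08, SE 0.15), and Atat1, which acetylates alpha-tubulin (0.83, SE 0.12), against Ccdc23, the cofactor of the enzymes that remove the C-terminal tyrosine (-0.74, SE 0.11), and Vash2, one of those enzymes (-0.52, SE 0.15). In polysomal RNA at day 7 Agtpbp1 was lower in SMA mice (-0.32, adjusted p = 0.188, limma) and Agbl5, Agbl3 and Ttll1 were higher. Of 15 severing and motor genes 3 rose and 4 fell with age in control total RNA, again close to the shares over all genes, with Kif1a (0.62) and Kif5c (-0.60) changing most.

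Across libraries most of the tubulin genes moved together. Within groups, as deviations from the group mean, Pearson's r was 0.96 for Tubb3 with Tubb5, for Tubb3 with Tubb2b and for Tuba1a with Tubb3, over 16 to 18 libraries. Tuba4a did not share this: its r with the other 8 genes lay between -0.35 (Tubb2b) and 0.15 (Tubb4a). Tubb4a shared it less, with r from 0.13 (Tuba1b) to 0.63 (Tubb4b). Over all libraries, without removing the groups, the genes with the highest r with Tuba1a among 14335 genes included Acot7 (0.96), BC037034, Tmem35 and Srm (16 libraries). Those for Tubb2b included Gm15459 (0.91), a processed pseudogene, Tnpo2, Slc1a4 and Zmym3, over 20 libraries. The genes most like Tubb4a included Trpc4ap (0.97), Lrrc3, Ppp2r5e and Syn1, over 20 libraries. These points share libraries, brains and ages, and the coefficients are given as a description.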

How the data were processed

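Whole brains of SMA mice and controls were measured in 20 libraries, total and polysomal RNA at postnatal days 5 and 7. The authors prepared stranded total RNA libraries, aligned reads with TopHat2 2.0.14 to GRCm38.p4 with Gencode annotation and deposited gene FPKM values from Cufflinks 2.2.1. All programs ran with default settings, which do not use strand. The study lists mapped reads per library, which are not used here. The reads behind a gene's FPKM are not in the table, so no counting interval is given.

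FPKM values were analysed as log2(FPKM + 0.1), a scale that understates the change of low genes. Genes averaging 1 FPKM or more across the libraries and above 0 in every library of a comparison were fitted with limma 3.58.1 (R 4.3.3, trended variance), each comparison on its own groups. The study called genes with CuffDiff and, for TE, with Xtail. Its threshold, an unadjusted p under 0.05, was kept for a call here, with limma in place of both programs. Benjamini-Hochberg values over all genes tested stand beside it. Values listed at 0 were treated as missing. Named genes are the 9 tubulins, and genes of the other lists among those that passed the threshold. The members, lists and tests were chosen with earlier results of these data known, and Stk16 was added after values were seen. Replicates are separate libraries, each from a mouse brain per the labels. Total and polysomal libraries of day 7 with the same number correlated in their deviations from the group means (r = 0.16 to 0.45 over 14335 genes), each best with its own number, so the numbers were taken to pair these libraries, a pairing read from the data and not stated in the labels. The number was then used as a block beside the unpaired fit. Alternatives were another pseudocount, no filter, quantile or median scaling, a lowess correction for transcript length (98.8% of gene identifiers had one), no trend, 1 model over 20 libraries, zeros kept, the replicate block, and each library left out. The fits were tested on simulated data. Sequences come from GENCODE M21 transcripts on GRCm38. Some genes and sequences are not reported here.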

Additional observations from a re-analysis of the deposited data

How the results depend on the processing

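The number of tubulin genes called moved with the processing in these comparisons. In SMA against control it went from 1 to 0 in total RNA of day 5 with the length correction, from 0 to 1 in polysomal RNA of day 5 with 1 model over all 20 libraries, and from 0 to 2 in total RNA of day 7 with quantile normalization or the length correction. In polysomal against total RNA, controls of day 5 went from 2 to 1 with no filter, 4 with quantile normalization and 0 with zeros kept. SMA mice of day 5 went from 1 to 4 with quantile normalization, and to 2 without a trend or with 1 model. Controls of day 7 went from 2 to 6 with quantile normalization and 1 with 1 model, and SMA mice of day 7 from 4 to 8 and 2. The interaction of genotype and stage in total RNA went from 0 to 1 with quantile normalization or the length correction. The rise of Tuba1a with age in control total RNA reversed to -0.0722 with quantile normalization. The causes were not tested.

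With the replicate block, polysomal against total RNA called 5 genes in controls and 8 in SMA mice of day 7. Control and SMA samples of the same number are different mice, and at day 5 the pairing of total and polysomal libraries is not known. In these cases the block called 0 in SMA against control in total RNA and 1 in polysomal RNA of day 5. It called 0 in polysomal against total RNA of SMA mice of day 5. Same-number correlations in these cases were 0.03 to 0.21. The block changed no other count of tubulins called by over 1.5 times.

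With 1 library left out, counts of tubulins called ranged in SMA against control from 0 to 3 (total, day 5), 0 to 2 (polysomal, day 5), 0 to 3 (total, day 7) and 0 to 1 (polysomal, day 7). For age they ranged from 4 to 7 in control total, 2 to 2 in control polysomal, 3 to 4 in SMA total and 4 to 6 in SMA polysomal RNA. For polysomal against total RNA they ranged from 0 to 4 and 0 to 1 in control and SMA mice of day 5, and 1 to 5 and 2 to 5 at day 7. The interaction ranged from 0 to 1 in total and 0 to 2 in polysomal RNA, and the change in TE stayed at 0. At day 5 a lone library was assumed to vary like the other groups.

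Over all genes, the share called in SMA against control at day 5 rose from 9.68% to 20% in total and from 15.3% to 25.8% in polysomal RNA with 1 model, and that of polysomal against total RNA in SMA mice of day 5 from 14.1% to 26.7%. Changes in TE went from 1.88% to 3.26% (1 model) and 2.85% (block) at day 5, and from 1.96% to 4.13% (block) at day 7. The interaction in polysomal RNA went from 13.7% to 8.82% with the length correction.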
